A study of Mus musculus with 9 samples.

Results

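Fibrin is laid down by the clotting cascade and removed by plasmin, and the genes examined here act at both ends of that balance. They were 8 genes chosen by name from the 38087 genes of the deposited table: *Plau*, *Plat*, *Plaur*, *Anxa2*, *F3*, *F13a1*, *Thbd* and *Procr*. The rule uses gene names only, although the names were picked with earlier results of these data known. All 8 were present once in the table and had reads in all 3 libraries of every group.

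The samples were middle colons of male C57BL/6 mice, 10 to 12 weeks old. Colitis was induced with dextran sulfate sodium (DSS) in the drinking water, a salt that injures the gut lining when swallowed. On day 3 of the experiment, within the course of DSS, the animals were injected into a vein, and they were killed the day after. They received human umbilical cord tissue-derived mesenchymal stem cells (UC-MSC), human adipose tissue-derived mesenchymal stem cells (AD-MSC) or phosphate-buffered saline only (control). Each group had 3 libraries, 9 in all, which the labels call biological replicates. All 3 groups had been given DSS, so no comparison with an uninflamed colon was made. The injected cells were thawed human cells placed in mice with an intact immune system, which limits both cell groups as a model.

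The table held 1 mean per gene and group, made by the authors from the 3 libraries. The spread between mice could therefore not be computed, no p-value or SD is given, and no difference below has a replicate check. Levels are given as normalized reads, the authors' log2 group mean turned back to a linear scale. Differences are log2 differences of group means, with a 95% interval that covers the counting of reads only and is the narrowest that the depth allows. Raw group means summed over genes came to 5.03e+06 reads in UC-MSC, 8.22e+06 in AD-MSC and 7.3e+06 in control, with reads for 26295, 27949 and 28695 genes in the same order. The counting error of a log2 difference had a median over the genes compared of 0.11 for UC-MSC against control, 0.097 for AD-MSC against control and 0.11 for UC-MSC against AD-MSC. In bulk tissue, fewer cells of a type and less RNA per cell cannot be told apart.

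Plasminogen circulates as an inactive precursor and is cut to plasmin by urokinase (*Plau*) or by tissue plasminogen activator (*Plat*). The urokinase receptor (*Plaur*) and annexin A2 (*Anxa2*) hold these reactions on cell surfaces. Clotting starts when blood meets tissue factor (*F3*), thrombin then makes fibrin, and factor XIII (*F13a1*) crosslinks it, while thrombomodulin (*Thbd*) and the endothelial protein C receptor (*Procr*) turn thrombin towards activation of protein C, an anticoagulant. In the inflamed gut both fibrin deposition and its removal take place at the damaged mucosa.

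Promoter windows of RefSeq (build GRCm38.p6), 250 bases before to 50 bases after the start site, were found for 5 of the 8 genes. They are shown as a description, so that a shared letter pattern in them can be read directly, and its part in the levels was not tested. Capitals mark matches to TGANTCA, the pattern bound by AP-1, a transcription factor induced by growth factors and cytokines. The pattern reads alike on both strands. It was picked after the sequences had been seen. The windows lie at chr7:24462233-24462532 on the plus strand for *Plaur*, chr9:69453433-69453732 on the plus strand for *Anxa2*, chr3:121723287-121723586 on the plus strand for *F3*, chr2:155750967-155751266 on the plus strand for *Procr* and chr13:37050195-37050494 on the minus strand for *F13a1*, the last shown as the window without a match.
Plaur: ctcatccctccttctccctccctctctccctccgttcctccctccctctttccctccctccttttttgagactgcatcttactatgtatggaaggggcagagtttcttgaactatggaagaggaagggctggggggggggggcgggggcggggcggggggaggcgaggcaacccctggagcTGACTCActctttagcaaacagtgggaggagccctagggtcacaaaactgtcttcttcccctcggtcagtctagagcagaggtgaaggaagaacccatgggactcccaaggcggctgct
Anxa2: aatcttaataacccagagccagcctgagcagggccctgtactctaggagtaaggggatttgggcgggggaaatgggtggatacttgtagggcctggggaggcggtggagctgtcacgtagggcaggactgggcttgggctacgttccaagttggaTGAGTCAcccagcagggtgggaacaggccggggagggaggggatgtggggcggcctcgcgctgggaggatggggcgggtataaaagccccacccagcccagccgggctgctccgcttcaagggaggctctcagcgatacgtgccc
F3: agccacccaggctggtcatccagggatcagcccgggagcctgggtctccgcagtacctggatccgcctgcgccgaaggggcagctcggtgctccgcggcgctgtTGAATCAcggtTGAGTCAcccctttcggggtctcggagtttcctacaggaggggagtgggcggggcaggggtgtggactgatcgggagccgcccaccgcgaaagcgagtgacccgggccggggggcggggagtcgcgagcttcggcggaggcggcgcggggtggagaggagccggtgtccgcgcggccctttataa
Procr: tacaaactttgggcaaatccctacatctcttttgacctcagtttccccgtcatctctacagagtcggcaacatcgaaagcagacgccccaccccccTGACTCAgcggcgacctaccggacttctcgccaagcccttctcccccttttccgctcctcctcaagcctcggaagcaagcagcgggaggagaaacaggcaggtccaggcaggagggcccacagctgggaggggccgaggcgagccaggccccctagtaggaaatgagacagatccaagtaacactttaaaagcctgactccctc
F13a1: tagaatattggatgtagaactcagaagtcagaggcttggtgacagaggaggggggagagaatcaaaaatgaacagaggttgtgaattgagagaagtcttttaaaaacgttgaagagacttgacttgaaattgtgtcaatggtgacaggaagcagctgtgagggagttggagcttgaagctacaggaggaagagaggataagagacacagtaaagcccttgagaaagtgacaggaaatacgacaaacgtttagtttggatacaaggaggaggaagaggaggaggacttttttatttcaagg

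Of the 5 genes with a window, 4 held the AP-1 pattern. It began 69 bases before the start site in *Plaur*, 95 before in *Anxa2*, 154 before in *Procr*, and at 146 and 135 before in *F3*, where 4 bases separate the copies. It was also missing from the further window of *F13a1*, at chr13:37049164-37049463. Among all 32851 windows of this length, 7.81% held the pattern, and among 42 other coagulation and plasminogen genes with a window, 7 did. Because the pattern was picked after these sequences had been seen, the shares cannot show that it is enriched in these genes. The commoner NF-kB pattern, here GGG and CC with any 5 bases between them on either strand, was in at least 1 window of all 5 genes and in 50.8% of all windows. Some of its matches overlapped each other, and 2 in *F3* also overlapped a match to GGGCGG, the Sp1 pattern, which was in *Plaur*, *Anxa2* and *F3* and in 35.7% of all windows. TATAAA was found in *Anxa2*, beginning 17 bases before the start site, its reverse complement TTTATA was found in *F3* after the start site, and 13.6% of all windows held either form, and TGACGTCA, the cyclic AMP response element, was in none of the 5 genes and in 1.79% of all windows. These matches are letters in a window and were not tested as binding sites.

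All 8 genes had their highest level in UC-MSC colons, and 7 of the 8 had lower values in AD-MSC than in control colons, although for *Procr* the counting interval included 0. Of all genes compared, 31.8% lay as far above control in UC-MSC as *Anxa2*, the member nearest to control. In AD-MSC 48.8% lay as far below control as *Procr*. The genes were picked with earlier results of these data known, so their shared direction is not an independent finding. Against control, the median log2 difference of the 8 genes was 0.77 in UC-MSC, beside -0.02 over the 15026 genes compared. It was -0.28 in AD-MSC, beside -0.01 over 14960 genes. These comparisons share the control libraries. Between UC-MSC and AD-MSC the median was 1.13, beside -0.01 over 15074 genes.

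**Figure D1:**
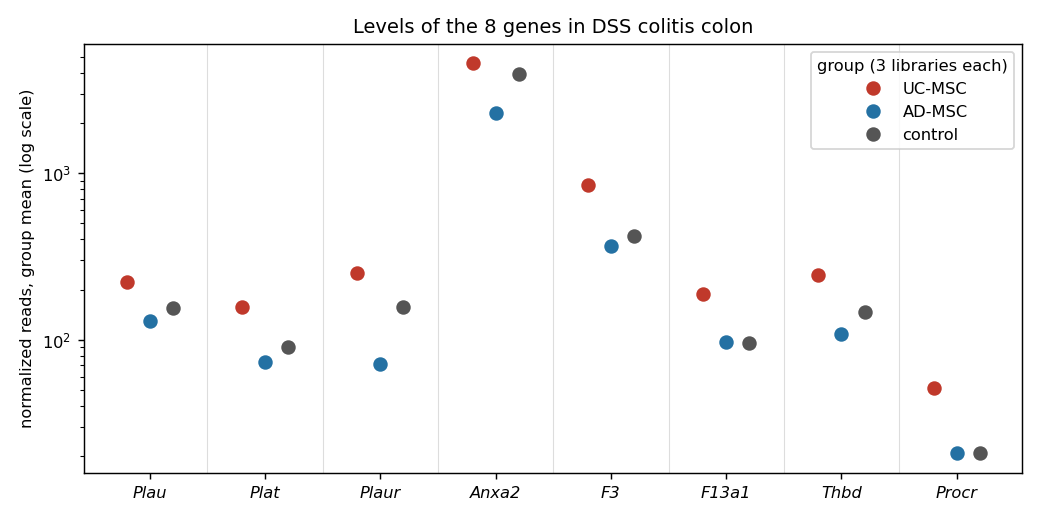
Levels of the 8 genes on a log axis of normalized reads, with 1 point per group mean of 3 libraries (UC-MSC, AD-MSC and control from left to right). The UC-MSC point is the highest for every gene, and levels run from 20.7 normalized reads for *Procr* in AD-MSC to 4566 for *Anxa2* in UC-MSC.

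Both plasminogen activators were higher than control in UC-MSC colons and lower than control in AD-MSC colons. *Plau* lies at chr14:20836662-20843388 and had 223 normalized reads in UC-MSC, 129 in AD-MSC and 154 in control. Its level was thus highest with UC-MSC and lowest with AD-MSC. Urokinase acts mainly at cell surfaces and in tissue. The log2 difference was 0.54 in UC-MSC against control (95% counting interval 0.36 to 0.71), or 1.45-fold, and -0.26 in AD-MSC against control (-0.43 to -0.08). Such differences were common, as 16.1% of all genes compared lay as far above control in UC-MSC and 22.7% as far below in AD-MSC. UC-MSC colons were 1.73-fold higher than AD-MSC colons.

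*Plat*, whose product acts best on plasminogen bound to fibrin, lies at chr8:22757744-22782847. It had 158 normalized reads in UC-MSC, 73.5 in AD-MSC and 90.3 in control. The groups stood in the same order as for *Plau*, with a wider gap above. The log2 difference was 0.80 in UC-MSC against control (0.58 to 1.03), and -0.30 in AD-MSC against control (-0.53 to -0.06). Of all genes compared, 8.43% lay as far above control in UC-MSC and 19.6% as far below in AD-MSC. The UC-MSC level was 2.15-fold that of AD-MSC. *St14*, matriptase, a membrane protease of epithelium listed with the activators, had 3257, 2876 and 2851 normalized reads in UC-MSC, AD-MSC and control, and its log2 differences from control were 0.19 and 0.01.

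Among the 8 genes, *Plaur* and *Anxa2*, which hold plasminogen activation on cell surfaces, had the lowest values in AD-MSC colons relative to control. *Plaur* (chr7:24462500-24475873) had 250 normalized reads in UC-MSC, 71.0 in AD-MSC and 158 in control. It was the 1 gene of the 8 that lay at least 2-fold below control in AD-MSC, where 2.01% of all genes compared were that much lower. Its log2 difference in AD-MSC against control was -1.15 (-1.36 to -0.94), and 1.4% of genes lay as far below. In UC-MSC against control it was 0.66 (0.49 to 0.83), and 12.1% of genes lay as far above. The difference between UC-MSC and AD-MSC was 1.81 (1.60 to 2.03), or 3.52-fold, the greatest of the 8 genes, and 0.783% of the genes compared lay as far above.

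*Anxa2*, a calcium-dependent membrane-binding protein to which plasminogen and its tissue activator attach, lies at chr9:69453620-69491795. It had 4566 normalized reads in UC-MSC, 2305 in AD-MSC and 3962 in control. UC-MSC and control were close and AD-MSC was lower. The log2 difference was 0.20 in UC-MSC against control (0.17 to 0.24) and -0.78 in AD-MSC against control (-0.82 to -0.74). As many as 31.8% of genes lay as far above control in UC-MSC, and 3.53% as far below in AD-MSC. Between UC-MSC and AD-MSC it was 0.99, 1.98-fold. An antisense gene, *Gm16144*, overlaps *Anxa2* and had 22.3, 16.0 and 31.5 normalized reads in UC-MSC, AD-MSC and control. Since the sources used here do not state whether counting used strand, reads of the pair cannot be told apart.

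*S100a10*, whose product forms a complex with annexin A2, had 2568, 1589 and 2601 normalized reads in UC-MSC, AD-MSC and control. The partners were lower together in AD-MSC, with a log2 difference from control of -0.71 for *S100a10*, and the log2 ratio of *Anxa2* to *S100a10* differed by -0.07 (-0.13 to -0.01). In UC-MSC that ratio was 0.22 above control (0.16 to 0.28). The ratio of *Plau* to its receptor *Plaur* differed by -0.13 in UC-MSC against control (-0.37 to 0.12), an interval that includes 0, and by 0.90 in AD-MSC against control (0.62 to 1.17). In AD-MSC colons receptor message was thus further below control than urokinase message.

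**Figure D2:**
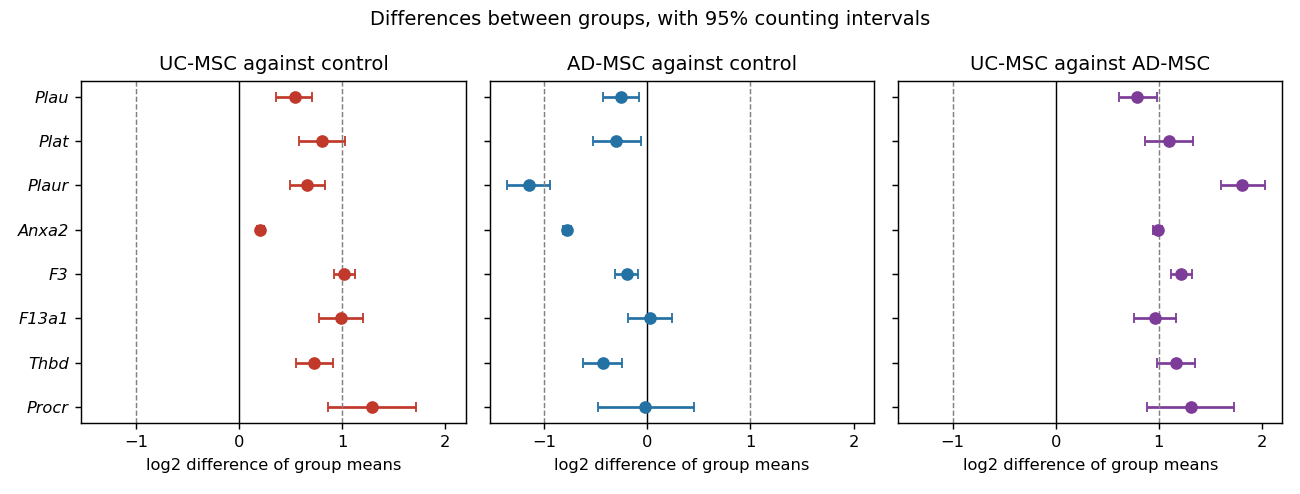
Log2 differences of group means for the 8 genes in UC-MSC against control, AD-MSC against control and UC-MSC against AD-MSC, with bars for 95% intervals of counting error only and dashed lines at 2-fold. All 8 points lie above 0 in UC-MSC against control and against AD-MSC, and *Plaur* at -1.15 lies farthest below 0 in AD-MSC against control.

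Tissue factor, the trigger of the clotting cascade, was among the genes that were higher with UC-MSC. *F3* lies at chr3:121723537-121735052 and had 849 normalized reads in UC-MSC, 365 in AD-MSC and 420 in control. The AD-MSC and control values were near each other and the UC-MSC value stood above both. The log2 difference was 1.02 in UC-MSC against control (0.92 to 1.12), 2.02-fold, and -0.20 in AD-MSC against control (-0.31 to -0.09). While 4.88% of genes lay as far above control in UC-MSC, 27.7% lay as far below in AD-MSC. UC-MSC colons had 2.33-fold the level of AD-MSC colons. *Tfpi*, whose product inhibits tissue factor with factor VIIa, had 69.1, 54.4 and 56.1 normalized reads in UC-MSC, AD-MSC and control. The log2 ratio of *F3* to *Tfpi* was 0.71 above control in UC-MSC (0.39 to 1.04) and differed by -0.16 in AD-MSC (-0.46 to 0.15).

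*F13a1*, the catalytic subunit of factor XIII and a gene also made by tissue macrophages, lies at chr13:36867178-37050244. It had 189 normalized reads in UC-MSC, 97.1 in AD-MSC and 95.3 in control. UC-MSC stood apart, and AD-MSC and control did not differ beyond counting error. The log2 difference was 0.99 in UC-MSC against control (0.78 to 1.20), 0.03 in AD-MSC against control (-0.19 to 0.24) and 0.96 in UC-MSC against AD-MSC. In UC-MSC against control 5.21% of genes lay as far above. *Tgm2*, the tissue transglutaminase, had 1550, 865 and 734 normalized reads in UC-MSC, AD-MSC and control. In UC-MSC it was 2.11-fold control, and the log2 ratio of *F13a1* to *Tgm2* differed from control by -0.09 (-0.31 to 0.13).

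The anticoagulant receptors were also highest in UC-MSC colons. *Thbd* (chr2:148404471-148408188) had 243 normalized reads in UC-MSC, 108 in AD-MSC and 146 in control. Thrombomodulin binds thrombin on endothelium and other cells and stops it from cleaving fibrinogen. The log2 difference was 0.73 in UC-MSC against control (0.55 to 0.91) and -0.43 in AD-MSC against control (-0.62 to -0.25). Of all genes compared, 10.3% lay as far above control in UC-MSC and 11.3% as far below in AD-MSC. UC-MSC colons were 2.24-fold higher than AD-MSC colons.

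*Procr*, which presents protein C to the thrombin-thrombomodulin complex, lies at chr2:155751117-155755471. It was the gene with the fewest reads, 51.3 normalized reads in UC-MSC, 20.7 in AD-MSC and 20.9 in control. AD-MSC and control were nearly equal and UC-MSC was above both. Its log2 difference in UC-MSC against control was 1.29 (0.86 to 1.72), 2.45-fold, the greatest of the 8 genes in that comparison, and 2.22% of the genes compared lay as far above. In AD-MSC against control it was -0.02 (-0.48 to 0.45), and its counting error of 0.24 was the largest of the 8. The log2 ratio of *Procr* to *Thbd* differed from control by 0.56 in UC-MSC (0.10 to 1.03) and by 0.42 in AD-MSC (-0.08 to 0.92). That of *Thbd* to *F3* differed from control by -0.28 in UC-MSC (-0.49 to -0.08) and by -0.23 in AD-MSC (-0.45 to -0.02). Between UC-MSC and AD-MSC these ratios differed by 0.15 (-0.31 to 0.60) and -0.05 (-0.26 to 0.16), intervals that include 0.

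In UC-MSC against control, 2 of the 8 genes were at least 2-fold higher, *F3* and *Procr*, and 5.09% of all genes compared were. *F13a1* lay just under that limit at 1.99-fold and *F3* just over it. With a pseudocount of 10 neither gene reached the limit, with equal totals of reads only *Procr* did, and with centring on the median of all genes *F13a1* was a further gene past it, 3 in all. In UC-MSC against AD-MSC, 5 of 8 genes were at least 2-fold higher, *Plat*, *Plaur*, *F3*, *Thbd* and *Procr*, beside 4.5% of all genes compared. *Anxa2* at 1.98-fold and *F13a1* at 1.95-fold lay just under the limit. A limit of 1.5-fold was passed by 6 of 8 genes in UC-MSC against control (14.4% of all genes higher), by 8 of 8 in UC-MSC against AD-MSC (12.3% higher) and, downwards, by *Plaur* and *Anxa2* in AD-MSC against control (6.62% lower). The direction of all 8 genes was the same under every scaling tried in UC-MSC against control and in UC-MSC against AD-MSC. The small difference of *Anxa2* from control in UC-MSC depended on the scaling. It was 0.07 with equal totals and 0.10 with centring on colon epithelium markers, both below its counting interval. In AD-MSC against control *F13a1*, the 1 gene above 0, was at -0.01 with equal totals of reads.

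**Figure D3:**
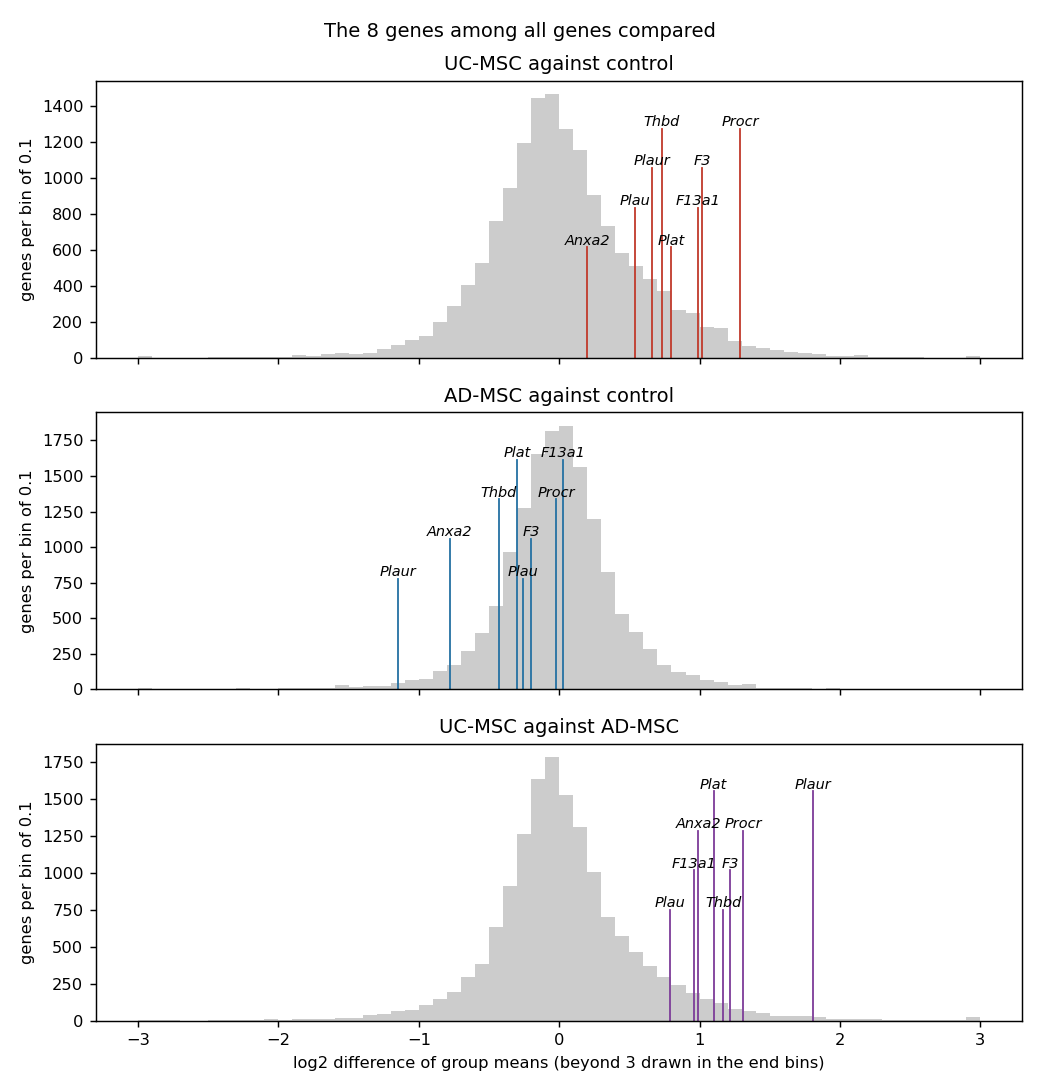
Histogram of log2 differences of group means over all genes compared (minimum mean of 10 normalized reads), in bins of 0.1, with a line at each of the 8 genes, for UC-MSC against control, AD-MSC against control and UC-MSC against AD-MSC. The heights of the lines carry no value. The 8 lines lie between 0.20 and 1.29 in the top panel, between -1.15 and 0.03 in the middle panel and between 0.79 and 1.81 in the bottom panel.

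Levels of different genes were compared per kilobase (kb) of exon. *Anxa2* led in every group, with 1224 normalized reads per kb in UC-MSC, 618 in AD-MSC and 1062 in control, followed by *F3* with 336, 144 and 166. *Plaur* changed place most between groups. In UC-MSC it stood beside *Plau*, at 95.4 and 94.1 normalized reads per kb, and in control also, at 60.3 for *Plaur* and 64.9 for *Plau*, gaps that counting error covers. In AD-MSC *Plaur* had 27.1 normalized reads per kb, under the 54.3 of *Plau* and next to the 29.1 of *Thbd*. The lowest genes were *F13a1*, *Plat* and *Procr*, between 25.3 and 28.1 normalized reads per kb in UC-MSC, between 10.2 and 14.4 in AD-MSC and between 10.3 and 14.5 in control. *Plat* and *Procr* did not differ beyond counting error in UC-MSC or AD-MSC, nor did *Plat* and *F13a1* in UC-MSC or control.

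The other genes of coagulation and plasminogen activation differed in both directions. Of 55 such genes listed, 54 were in the table, and 28 had the minimum mean of 10 normalized reads in UC-MSC and control. Of these 28, 16 were above and 12 below 0, with a median log2 difference of 0.14, and the 2-fold limit was passed upwards by 3 and downwards by 1, beside 5.09% and 2.66% of all genes. In AD-MSC against control, 10 were above and 17 below 0 of 27, with a median of -0.10, and the limit was passed upwards by 0 and downwards by 1, beside 1.69% and 2.01% of all genes. In UC-MSC against AD-MSC, 20 were above and 6 below 0 of 26, with a median of 0.29, and the limit was passed upwards by 1 and downwards by 1, beside 4.5% and 2.3% of all genes.

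Of the listed inhibitors of plasmin and its activators, 3 of 8 were compared, and all 3 were above 0 in UC-MSC against control, with a median log2 difference of 0.80. In AD-MSC against control 2 were above 0, with a median of 0.68. *Serpine2*, protease nexin-1, had 177 normalized reads in UC-MSC, 119 in AD-MSC and 74.1 in control and was 2.38-fold higher in UC-MSC than in control. *Serping1*, C1 inhibitor, was 1.74-fold higher in UC-MSC, with 734, 407 and 421 normalized reads in UC-MSC, AD-MSC and control. *Serpini1*, neuroserpin, an inhibitor of tissue plasminogen activator, had 23.2, 35.1 and 21.1 normalized reads.

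Among the other receptors, *Lrp1*, which clears activator-inhibitor complexes, had 3778 normalized reads in UC-MSC, 3280 in AD-MSC and 2410 in control. *Krt8*, an epithelial keratin listed as a plasminogen-binding protein, had 12609, 11643 and 13418. *Lrp2*, megalin, was low, with 6.91, 11 and 17.4 normalized reads. It was 2.51-fold lower in UC-MSC than in control, with a counting error of 0.42 on the log2 scale.

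Several genes of circulating factors were at or near the floor of 1 normalized read. *F9* was at 1 normalized read in all 3 groups, and *Fga*, *Fgb* and *Fgg*, the fibrinogen chains, lay between 1 and 1.81. *Plg*, plasminogen itself, had 1, 1.44 and 1.24 normalized reads in UC-MSC, AD-MSC and control. *F10*, factor X, was low, with 17.7, 12.0 and 6.81 normalized reads. It was 2.61-fold higher in UC-MSC than in control, with a counting error of 0.38 on the log2 scale. *F5*, factor V, had 24.1, 8.39 and 14.8, and its UC-MSC level was 2.88-fold that of AD-MSC, with a counting error of 0.33. *F8*, the antihemophilic factor, had 13.1, 5.49 and 17.1, and its AD-MSC level was 3.11-fold lower than control, with a counting error of 0.37 on the log2 scale. *Vwf*, the endothelial carrier of factor VIII, had 456, 289 and 258 normalized reads and was 1.76-fold higher in UC-MSC than in control. The genes of vitamin K recycling and factor secretion showed small differences, with *Mcfd2* at 551, 407 and 484 and *Lman1* at 537, 486 and 538 normalized reads.

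In the protein C pathway, *Pros1*, the cofactor protein S, had 412 normalized reads in UC-MSC, 235 in AD-MSC and 235 in control, 1.75-fold higher in UC-MSC than in control. *Gas6*, a protein S relative that activates TAM receptors, had 1164, 1422 and 1286. Outside that pathway, *Proz*, protein Z, was listed with the coagulation inhibitors and had 10.6, 25.5 and 15.2 normalized reads. It was lower in UC-MSC than in AD-MSC by 2.41-fold, with a counting error of 0.34 on the log2 scale. Of the thrombin and protease receptors, *F2r*, the thrombin receptor of vessel and stromal cells, had 284, 205 and 161 normalized reads, 1.76-fold higher in UC-MSC than in control. *F2rl1*, a trypsin-activated receptor of epithelium, had 938, 769 and 853.

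**Figure D4:**
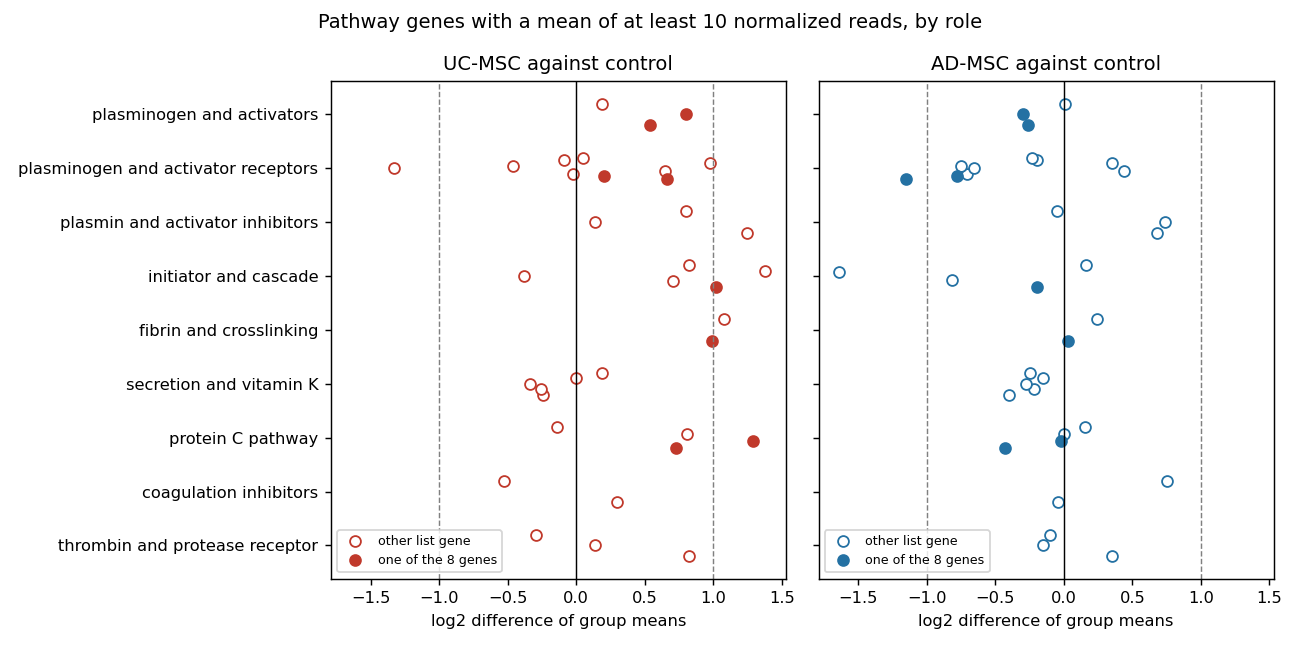
Log2 differences of group means from control of the pathway genes that reached the minimum mean of 10 normalized reads, by role, in UC-MSC (left) and AD-MSC (right), with filled points for the 8 genes, open points for the other genes of the lists and dashed lines at 2-fold. In UC-MSC the filled points lie above 0 while the open points lie on both sides, from -1.33 for *Lrp2* to 1.38 for *F10*.

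Markers of several cell types differed along with the 8 genes. Of 13 macrophage and monocyte markers, 12 were above 0 in UC-MSC against control, with a median log2 difference of 1.18 and sums of 4213 normalized reads in UC-MSC and 2285 in control. In AD-MSC the median was 0.02 and the sum 2142. *Csf1r* had 390, 195 and 199 and *Mrc1* 662, 282 and 272 normalized reads in UC-MSC, AD-MSC and control, and none of the 13 was at the floor. *Emr1* differed less, with 96.6, 65.1 and 81.4. *Cd14*, the 1 marker below 0 in UC-MSC against control, had 173, 135 and 232. Of the neutrophil markers, 5 of 10 were compared in UC-MSC against control and all 5 were above 0, with a median of 1.63. Of these, *S100a9* and *Cxcr2* reached the minimum mean only through UC-MSC, with 18.8 and 25.7 normalized reads beside 5.3 and 8.31 in control. *S100a9* also did not have reads in every library. The count and the median thus lean upwards by the choice of genes compared. The neutrophil sums were 612 normalized reads in UC-MSC, 189 in AD-MSC and 243 in control, and *Elane* was at the floor in all 3 groups. *Ly6g*, which made up most of that sum, belongs to a family of like sequence and is less certain.

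Of 12 blood endothelium markers, 12 were above 0 in UC-MSC against control, with a median of 0.84, and 9 were above 0 in AD-MSC against control, with a median of 0.26. Their sums were 2328 normalized reads in UC-MSC, 1594 in AD-MSC and 1267 in control, led by *Pecam1* with 492, 323 and 262. Of 10 fibroblast markers, 10 were above 0 in UC-MSC against control, with a median of 1.0, and 8 in AD-MSC, with a median of 0.14. The part of these cell types in the differences of the 8 genes was not tested. The 8 genes had a median of 0.77 in UC-MSC, below the medians of these 4 lists, and in AD-MSC, where their median was -0.28, the macrophage, endothelium and fibroblast medians were at or above 0 and the neutrophil median, from 2 genes, was -0.55.

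All 10 colon epithelium markers were detected, with *Epcam* at 11004, 10885 and 10305 normalized reads in UC-MSC, AD-MSC and control. Their median log2 difference from control was 0.10 in both cell groups, with 7 above and 3 below 0 in each. Single markers differed more, as *Cdx2*, an intestinal identity factor, had 98.7, 307 and 184 normalized reads, 3.11-fold lower in UC-MSC than AD-MSC, and the mucin gene *Muc2* had 21137, 29464 and 17012. Of 8 platelet markers only 3 were compared, with medians of 0.07 in UC-MSC and -0.12 in AD-MSC, and *Treml1* was at the floor in all groups. Mesothelial markers, which mark the outer covering of the bowel, had medians of -2.02 in UC-MSC, from 4 of 6 genes, and -0.82 in AD-MSC, from 5. Their reads were few, with *Msln* at 5.87, 4.19 and 24.5 and *Lrrn4* at 5.69, 16.5 and 29.2 in UC-MSC, AD-MSC and control. Both reached the minimum mean in UC-MSC against control only through control, so that median leans downwards. Erythrocyte markers had medians of -0.29 and -1.25, from 5 genes each. Ribosomal protein genes, given as a sign of RNA quality, had medians of -0.48 and -0.26. The part of tissue sampling and RNA quality in the differences was not tested.

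**Figure D5:**
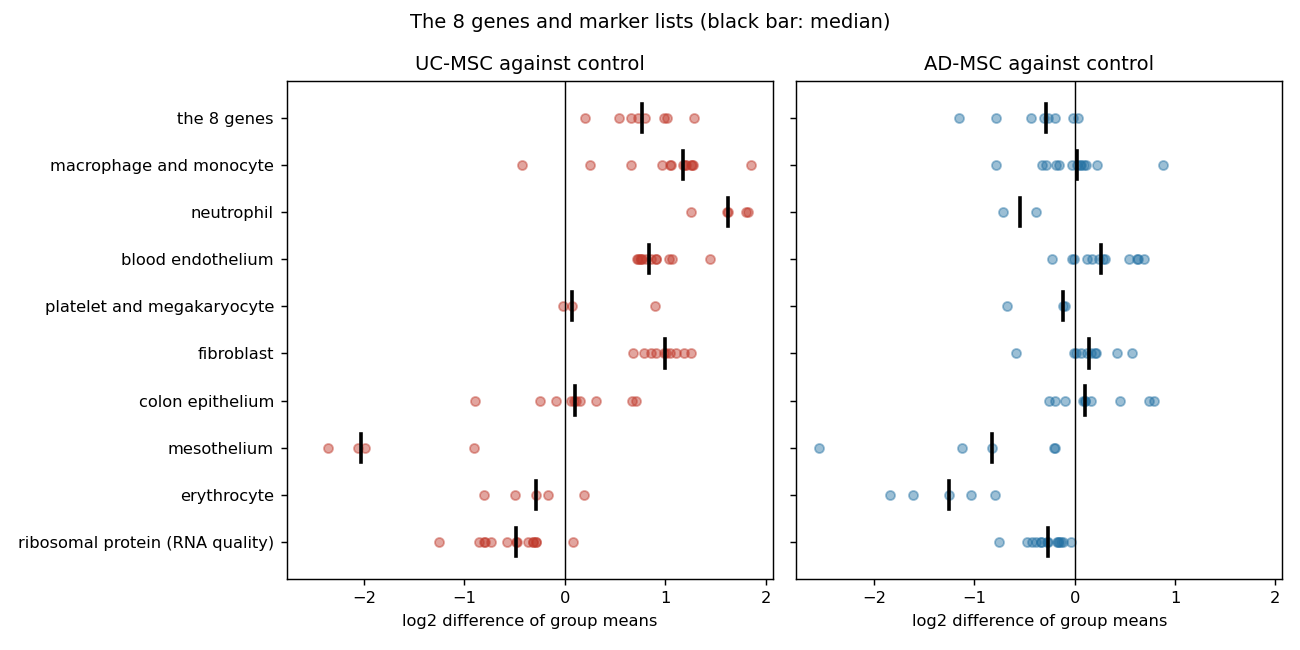
Log2 differences of group means from control for the 8 genes and for the marker lists, in UC-MSC (left) and AD-MSC (right), with 1 point per gene compared and a black bar at each median. In UC-MSC the medians of the macrophage, neutrophil, endothelium and fibroblast lists lie between 0.84 and 1.63, and that of the 8 genes lies at 0.77.

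The genes most like each of the 8 were found by their distance in the plane of both log2 differences from control, among 9675 genes above a minimum mean of 50 normalized reads. The nearest to *Plaur* were *Gfpt2* and *Csf2rb2*, a receptor chain of myeloid cells, with differences of 0.67 and 0.75 in UC-MSC and -1.13 and -1.20 in AD-MSC, and only 3 genes lay within 0.1. The nearest to *F3* were *Tm4sf1* and *Cd44*, and those to *Procr* were *Mt2* and *Plekho2*, with 9 and 6 genes within 0.1. The values of *F13a1* were common, with 43 genes within 0.1, of which *Zcchc24* and *Rnf144b* were the nearest. *Plau* had *Maff* and *Optc*, *Plat* had *Cmklr1* and *Tnfaip2*, *Anxa2* had *Igfbp6* and *Itgal*, and *Thbd* had *Arf2* and *Gpr133*. Likeness over 3 group means is a description and carries no test.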

How the data were processed

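RNA of 9 middle colons was made into stranded total RNA libraries from samples with an RNA integrity number that passed the authors' limit. Per the submitters' processing notes, bcl2fastq 1.8.4 and DESeq were used with mouse build GRCm38/mm10. The methods add the Strand NGS software. The aligner and any strand setting were not given in the sources used here. The deposited table holds, per group, the authors' mean raw reads and their mean log2 normalized reads, in 1 column each. Above 50 raw reads, the log2 values differed from log2 raw reads by 1 constant per group, within 0.002, for 99.79% of genes or more. The floor of the log2 values is 1 normalized read per library. With 1 mean per group no test across libraries could be run.

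Log2 group means were subtracted for genes above a minimum mean of 10 normalized reads in the groups compared. The counting error was taken from the raw reads of both groups, as the root of the summed 1/(3 × reads), put on the log2 scale. Positions are those of the table (GRCm38/mm10), exon lengths are from GENCODE M21, and promoters are from RefSeq. Genes were named as follows: all 8, list genes at least 2-fold different in any comparison, up to 2 more per role with the highest mean, and the 2 nearest genes in likeness. *S100a10*, the clotting factor genes near the floor, *Gm16144*, the marker genes and the gene pairs set as ratios were named outside this rule after their values were seen. The 8 genes and all lists were chosen with earlier results of these data known, and 1 listed gene is not reported here. Alternatives were a pseudocount of 10, equal totals, centring, minimum means of 0 and 50, and 1.5-fold. The subtraction of group means and the 2-fold limit were tested on simulated data, with planted differences larger than that limit. The other steps were not simulated. Python 3.11.15, numpy 2.4.6, pandas 2.3.3 and matplotlib 3.10.9 were used.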

Additional observations from a re-analysis of the deposited data

How the results depend on the processing

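Without values of single libraries no replicate could be left out and mouse-to-mouse spread is unknown, and 2-fold counts of a few genes rest on values near the limit. No paired analysis was possible because the table has 1 column per group, which carries no replicate number. Equal totals of reads shifted UC-MSC against control down by 0.13 on the log2 scale, to a median of -0.15 over all genes.

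The median of the 8 genes kept its sign under every setting run, between 0.63 and 0.79 in UC-MSC against control, -0.37 and -0.25 in AD-MSC against control, and 1.0 and 1.14 in UC-MSC against AD-MSC. In UC-MSC against control, the 2 genes at least 2-fold different became 0 with a pseudocount of 10, 1 with equal totals, 3 when centred on the median of all genes, 1 with a minimum mean of 50, 6 at 1.5-fold and, in scalings chosen after seeing the data, 1 with equal totals without the 20 most abundant genes and 1 when centred on epithelium markers. The 6 genes of the pathway lists, with the 8 genes included, became 2 with the pseudocount, 4 with equal totals, 7 when centred on all genes, 12 with no minimum, 3 with a minimum of 50 and 17 at 1.5-fold. In AD-MSC against control, the 1 gene became 2 at 1.5-fold, and the 2 pathway genes became 1 with the pseudocount, 4 with no minimum, 1 with a minimum of 50 and 10 at 1.5-fold. In UC-MSC against AD-MSC, the 5 genes became 8 at 1.5-fold and 4 with the pseudocount or a minimum of 50. The 7 pathway genes became 4 with the pseudocount, 14 with no minimum, 4 with a minimum of 50 and 17 at 1.5-fold. Of these 7, 5 were picked genes, so that count mostly repeats theirs. Picked genes were 2 of the 6 in UC-MSC against control and 1 of the 2 in AD-MSC against control. Beside the 8 genes, the main settings compared 28 list genes in UC-MSC against control. They compared 27 in AD-MSC against control and 26 in UC-MSC against AD-MSC. Shares of all genes were taken only at the main settings and, in 1 direction, at 1.5-fold. Counts at the other settings thus have no background. A lower minimum or fold takes in more genes by construction, and a higher minimum leaves genes out, as it did *Procr*. A pseudocount shrinks differences, most where reads are few, and a scaling moves every gene by the same amount. In UC-MSC against control *Procr* went from 1.29 to 0.99 with the pseudocount, and *F3* from 1.02 to 0.88 with equal totals. *F13a1* in AD-MSC against control was at -0.07 when centred on epithelium markers.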

Other observations

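Relatives of *Plaur*, *Anxa2* and *F13a1* by protein family were also measured. In the annexin family, 9 of 11 genes compared, *Anxa2* included, were above 0 in UC-MSC against control, with a median log2 difference of 0.33, and 9 of 10 were below 0 in AD-MSC against control, with a median of -0.38. *Anxa8* had 1587 normalized reads in UC-MSC, 347 in AD-MSC and 615 in control, so that UC-MSC had 4.57-fold the AD-MSC level. *Anxa1*, known for its part in ending inflammation, had 3014, 1099 and 1942 normalized reads, and UC-MSC had 2.74-fold the AD-MSC level. *Anxa11* was lower in both cell groups, with 1526, 1676 and 2110, and *Anxa4* had 1269, 1340 and 1243.

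In the Ly6/uPAR family, 8 of 9 genes compared, *Plaur* included, were above 0 in UC-MSC against control. In AD-MSC against control 6 of 8, again with *Plaur*, were below 0. The medians were 0.54 and -0.57, beside -0.02 and -0.01 over all genes compared. *Ly6a* had 3049 normalized reads in UC-MSC, 1361 in AD-MSC and 2187 in control, *Ly6c1* 620, 214 and 327, *Ly6g6c* 50.6, 16.3 and 23.5, *Ly6c2* 16.6, 2.37 and 6.31, and *Ly6d* 8.28, 6.22 and 16.3. *Ly6c2* reached the minimum mean in UC-MSC against control only through UC-MSC, and *Ly6d* in the comparisons with control only through control. Neither had reads in every library. *Ly6a*, *Ly6c1* and *Ly6c2* are close in sequence to their neighbours, so their values are less certain. *Lypd8*, which keeps flagellated bacteria off the colonic epithelium, was far more abundant, with 49398, 47365 and 41626. Among the transglutaminases, *Tgm3*, the most abundant, went the other way from *F13a1* and *Tgm2* in UC-MSC, with 8166, 6759 and 11439 normalized reads.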
